A study of Mus musculus with 2 samples.

Results

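The immunoglobulin light-chain genes described here are the 118 genes of the mouse kappa (Igk) and lambda (Igl) loci that GENCODE M21 annotates as immunoglobulin variable, joining or constant genes, pseudogenes left out. They were chosen by symbol and transcript type alone, and they are 118 of 55536 genes in the gene table. The kappa locus on chromosome 6 holds 106 of them, with 100 variable (Igkv), 5 joining (Igkj) and 1 constant gene (Igkc). The lambda locus on chromosome 16 holds 12, with 3 variable (Iglv), 5 joining (Iglj) and 4 constant genes (Iglc1 to Iglc4). The samples were 2 libraries of total RNA from peripheral blood neutrophils of C57BL/6J mice aged 5 to 6 weeks, numbered replicate 1 and replicate 2, with no treatment named in the labels and no second group. Each library was built with ScriptSeq reagents from 100 ng of RNA at a size range of 200 to 1000. The labels name 1 donor for both libraries and no sex, so the spread between them may be technical.

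An antibody or B-cell receptor pairs heavy chains with light chains, and each light chain is either kappa or lambda. In a developing B cell the RAG recombinase joins one variable segment to one joining segment, and splicing then connects the joined exon to a constant exon. In mice most B cells carry kappa chains. Neutrophils are myeloid cells and are not known for rearranging these loci, whereas blood B cells transcribe them strongly. In the kappa locus, variable genes that lie on the strand opposite to the joining segments are joined by inversion, and the others by deletion.

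The sets of sequences below were chosen because the counts of near-identical segments depend on how reads were shared between them. They were read from the GENCODE M21 transcripts on mm10 and run 5′ to 3′. The first set gives the kappa joining segments, with capitals at bases that differ from Igkj1 when both are aligned at their 3′ ends. These genes lie on the plus strand at chr6:70722562-70722599 for Igkj1, chr6:70722916-70722958 for Igkj2, chr6:70723223-70723260 for Igkj3, chr6:70723548-70723585 for Igkj4 and chr6:70723886-70723927 for Igkj5.
Igkj1: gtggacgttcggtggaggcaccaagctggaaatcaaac
Igkj2: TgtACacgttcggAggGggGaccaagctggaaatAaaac
Igkj3: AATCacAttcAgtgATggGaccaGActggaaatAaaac
Igkj4: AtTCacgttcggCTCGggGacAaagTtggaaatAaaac
Igkj5: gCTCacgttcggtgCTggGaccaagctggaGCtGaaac
Over 38 bases Igkj2 differed from Igkj1 at 6, Igkj5 at 9, Igkj4 at 11 and Igkj3 at 12.

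The lambda joining segments lie on the minus strand of chromosome 16, and capitals mark differences from Iglj1.
Iglj1: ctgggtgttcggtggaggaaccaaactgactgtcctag
Iglj2: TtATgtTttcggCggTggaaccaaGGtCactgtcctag
Iglj3: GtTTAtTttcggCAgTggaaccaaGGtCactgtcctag
Iglj3p: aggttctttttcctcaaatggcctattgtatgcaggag
Iglj2 differed from Iglj1 at 9 of 38 bases and Iglj3 at 11. Iglj3p, annotated as a joining gene, differed at 26 and is printed without capitals. Iglj4, not printed, is annotated with 42 bases and differed at 25 of 38. Its sequence continues past the gtcctag at which Iglj1 ends, so alignment at the 3′ ends is offset for it.

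The constant genes Iglc2 (chr16:19198396-19200351, minus strand) and Iglc3 (chr16:19065230-19065681, minus strand) were the closest pair of constant genes. Their coding parts differed at 11 of 314 bases compared. The stretch printed is bases 19 to 78 of the Iglc2 coding part beside bases 18 to 77 of Iglc3, with capitals at the 5 bases that differ.
Iglc2: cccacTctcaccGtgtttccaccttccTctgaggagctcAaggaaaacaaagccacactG
Iglc3: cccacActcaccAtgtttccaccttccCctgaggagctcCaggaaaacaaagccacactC
The longest identical run in the alignment of both transcripts was 79 bases, so some fragments cannot be assigned to either gene from their letters alone. When the Igkc transcript was aligned end to end with that of each Iglc gene, no identical run in the alignment exceeded 8 bases.

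The last 60 bases of the leading variable genes show how alike or unlike these were, with capitals at the last in-frame cysteine codon.
Igkv1-117: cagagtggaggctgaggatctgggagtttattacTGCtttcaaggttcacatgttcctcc
Igkv1-110: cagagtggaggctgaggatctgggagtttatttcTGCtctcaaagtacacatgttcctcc
Igkv19-93: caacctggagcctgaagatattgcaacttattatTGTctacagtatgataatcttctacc
Igkv10-96: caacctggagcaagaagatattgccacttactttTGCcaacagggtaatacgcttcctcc
Iglv1: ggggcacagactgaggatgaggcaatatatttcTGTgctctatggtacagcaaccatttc
Iglv2: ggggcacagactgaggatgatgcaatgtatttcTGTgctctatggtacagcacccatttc
Iglv3: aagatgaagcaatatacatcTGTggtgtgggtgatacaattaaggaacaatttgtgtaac
Igkv1-117 and Igkv1-110 differed at 4 of the 60 bases, and Iglv1 and Iglv2 at 3. Igkv1-117 and Igkv19-93 differed at 24, and Iglv1 and Iglv3 at 43. All 103 variable genes had such a codon, and 69 of them had 23 bases after it, with a range of 18 to 37 and the longest in Iglv3.

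The gene table summed to 22647028 for replicate 1 and to 21471719 for replicate 2, in units of expected counts. An expected count is an estimate of the reads from a gene and need not be whole, and TPM scales it by transcript length and library. All 10 neutrophil markers on the list reached a TPM of 1 in both libraries, with a median TPM of 71.7 and 69.8 and Ly6g, the usual surface marker of mouse neutrophils, the lowest at 2.10 ± 0.27 (SD, n = 2). All 10 B-cell markers did so too, with a median TPM of 37.5 and 34.8 and a summed TPM of 379 and 338. Their part in the light-chain values was not tested. The 5 red-cell genes on the list summed to a TPM of 4327 and 4262. Of the other lists, 8 of 9 T-cell and 5 of 6 monocyte markers reached a TPM of 1 in both libraries. In bulk RNA, fewer cells of a type and less RNA per cell cannot be told apart.

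The light-chain genes together summed to 23778 in replicate 1 and to 23938 in replicate 2, or 0.105% and 0.111% of each library. A count was present in both libraries for 94 of the 118 genes, and 66 reached 10 counts in both. The 17 genes at 0 in both libraries were the 10 joining genes, whose effective length is 0 in this table so that no count could be assigned, and 7 Igkv genes.

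Igkc, the only kappa constant gene (chr6:70726435-70726966, plus strand), was the highest member by far. Its expected counts were 13672 and 13318 in the order of the replicate numbers, which is a TPM of 381 and 363, or 372 ± 12.9 (SD, n = 2). Among the lambda constant genes, Iglc3 had 2172 and 2250 expected counts, Iglc2 had 1732 and 2025, and Iglc1 had 938 and 1119. Iglc4 was near the floor, with 6 expected counts in each library. Per length, the TPM was 77.5 and 78.1 for Iglc3, 52.7 and 62.8 for Iglc2, and 33.2 and 38.6 for Iglc1, so the order was the same in both libraries and no ranges overlapped. Within the lambda constant genes, Iglc3 took 43.2% ± 2.21, Iglc2 36.6% ± 1.25, and Iglc4 0.117% ± 0.0089 of the counts (SD, n = 2), and Iglc1 19.3% and 20.7%. Since 22.3% of the 50-base windows of Iglc3 occur in another gene, 47 of them in the antisense RNA 2010309G21Rik that overlaps it and 43 in Iglc2, the split between these genes is uncertain. The antisense RNA itself had 77 and 96 counts, and whether counting used strand is not stated in the labels or headers, so its reads cannot be told apart from those of Iglc3 there. Igkc overlaps the annotated span of the noncoding RNA Gm30211 on the same strand, which had 649 and 595 counts, but shares no 50-base window with its transcripts, and Iglc1 shares none with any gene.

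**Figure D1:**
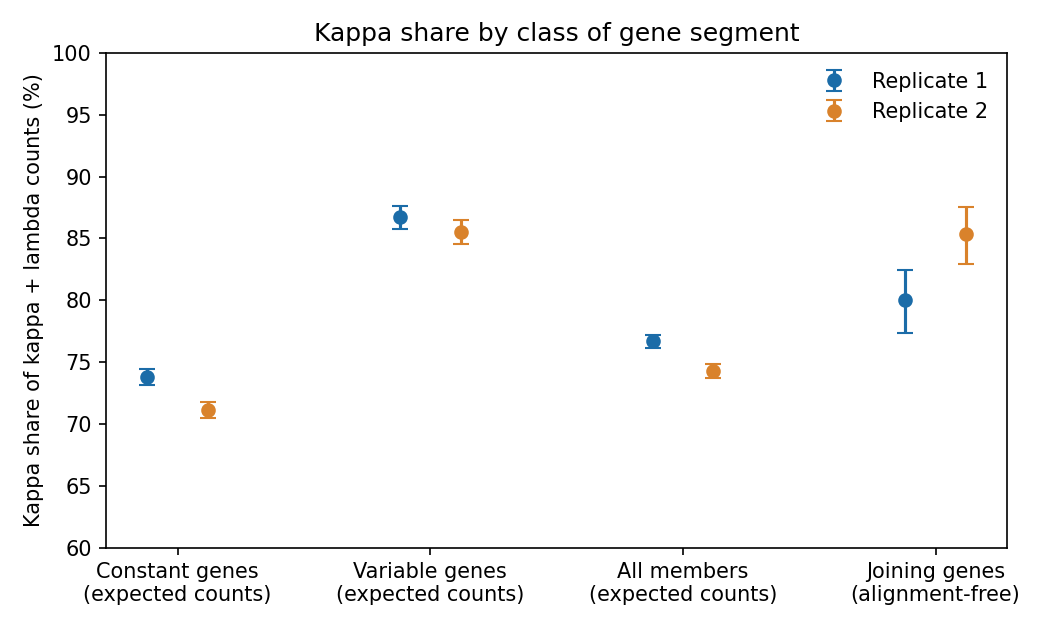
Kappa share of kappa plus lambda counts (percent, axis from 60 to 100) for constant, variable, all light-chain and joining genes, as points for replicate 1 (blue) and replicate 2 (orange) with exact 95% Clopper-Pearson intervals that cover counting error only. The share is 71.2% to 73.8% for constant genes and 85.5% to 86.7% for variable genes.

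The share of kappa among light chains depended on the gene class used. Igkc took 73.8% of the constant-gene counts in replicate 1 (exact 95% interval 73.2% to 74.5%) and 71.2% in replicate 2 (70.5% to 71.8%), or 72.5% ± 1.89 (SD, n = 2). The Igkv genes took 86.7% of the variable-gene counts (85.8% to 87.6%) and 85.5% (84.6% to 86.5%), or 86.1% ± 0.86. The kappa share was higher by variable genes than by constant genes in both libraries, by 12.9 and 14.4 percentage points, and the intervals did not overlap. On the TPM scale the shares were 68.4% ± 2.18 for constant genes and 86.9% ± 0.94 for variable genes. In the same units the summed Igkv TPM was 0.594 ± 0.012 times the Igkc TPM, and the summed Iglv TPM was 0.195 ± 0.0075 times the Iglc TPM. Over all light-chain genes kappa held 75.5% ± 1.69 of the counts. These intervals cover counting error only.

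Igkv counts summed to 4561 and 4465, and most of the genes contributed to them. Of 100 Igkv genes, 59 reached 10 counts in both libraries, 27 stayed under 10 in both, and the median gene had 22.1 and 22.6 counts. It took the 11 highest genes to reach 50% of the Igkv counts in replicate 1 and the 12 highest in replicate 2. The 10 highest by mean count held 48.4% and 47.1%, and 9 of 10 were the same in both libraries when each library was ranked on its own.

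The leading gene was Igkv1-117 (chr6:68121046-68121827, plus strand), with 364.5 and 418 counts and 8.68% ± 0.97 of the Igkv counts. Igkv19-93 (chr6:68736297-68736780, minus strand) followed with 369 and 312 counts, or 7.54% ± 0.78, and the ranges of these shares overlapped, so the first place is not settled by these libraries. Per length Igkv19-93 stood first in replicate 1 with a TPM of 19.0 against 15.6 for Igkv1-117, and second in replicate 2 with 15.5 against 17.3. Igkv1-110 (chr6:68270485-68271267, plus strand) had 270.5 and 344 counts, or 6.82% ± 1.25. Igkv10-96 (chr6:68631963-68632442, minus strand) had 256 and 217, or 5.24% ± 0.54. Of these, Igkv19-93 shares no 50-base window with another gene, whereas 49.9% of the windows of Igkv1-117 and 50.9% of those of Igkv1-110 also occur in another gene, chiefly in each other, and 32.6% of those of Igkv10-96 do. Next in order, Igkv1-135 had 178 and 146 counts, Igkv14-111 184 and 130, Igkv16-104 169 and 135, and Igkv12-46 132 and 163. Igkv6-15 had 145 and 124 counts, Igkv17-127 141 and 112, Igkv6-23 104 and 117, and Igkv5-43 106 and 85.6. The last 3 of the 15 highest were Igkv12-44 with 82.6 and 107.7 counts, Igkv8-21 with 105 and 78.0, and Igkv9-120 with 75.0 and 105.0. In the M4 table Igkv8-21 had only 20 and 9.9 counts, and its share fell from 2.02% to 0.435% of the Igkv counts. Only 3 of these 15, namely Igkv19-93, Igkv14-111 and Igkv16-104, share no 50-base window with another gene.

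**Figure D2:**
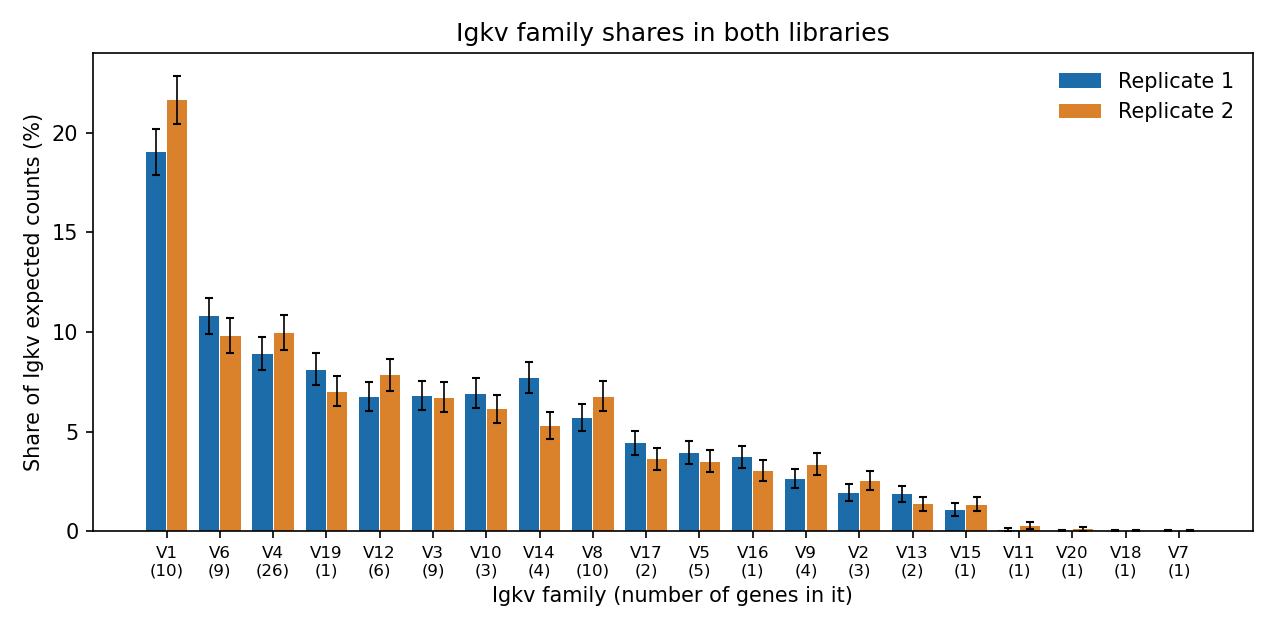
Share of Igkv counts (percent) taken by each of 20 families in replicate 1 (blue) and replicate 2 (orange), with exact 95% Clopper-Pearson intervals that cover counting error only, and the number of genes per family in brackets. The Igkv1 family is highest in both libraries, and 4 families are near 0.

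Grouped by family, which groups variable genes of similar sequence, Igkv1 led with 19.0% of the Igkv counts in replicate 1 (exact 95% interval 17.9% to 20.2%) and 21.6% in replicate 2 (20.4% to 22.8%) from 10 genes. Among the 22 Igkv genes without shared windows, however, Igkv19 led with 31.2%, since that setting leaves out most Igkv1 genes. Igkv6 held 10.3% ± 0.69 from 9 genes. Igkv4, the largest family with 26 genes, held 9.41% ± 0.75, and its highest gene, Igkv4-55, had 56.8 and 76.0 counts. The single-gene family Igkv19 held 7.54% ± 0.78, close to the Igkv12 share of 7.27% ± 0.77 from 6 genes. Igkv3 held 6.74% ± 0.055, with Igkv3-7 highest by the mean but below Igkv3-4 and Igkv3-12 in replicate 2, and Igkv10 6.51% ± 0.56, of which Igkv10-96 made up 80.5%. Igkv14 held 7.70% (6.94% to 8.51%) in replicate 1 and 5.29% (4.65% to 5.98%) in replicate 2. Igkv1 and Igkv14 were the 2 families of 20 whose intervals did not overlap between the libraries. The intervals cover counting error only, and no share over other genes is given beside this count, so whether it is unusual is not known. The other families with a gene of at least 10 counts in both libraries ran from Igkv8 at 6.20% ± 0.75 down to Igkv15 at 1.19% ± 0.19. Their highest genes by mean count not yet named were Igkv2-109 with 45 and 49 counts, Igkv13-85 with 38.9 and 34.1, and Igkv15-103 with 48 and 59. Igkv2-137 exceeded Igkv2-109 in replicate 2, and Igkv13-84 exceeded Igkv13-85 in replicate 1 with 45.1 counts, and in the M4 table Igkv13-85 had 1 count in each library against 47 and 27 for Igkv13-84. In 4 of the 20 families no gene reached 10 counts in both libraries, among them Igkv11 with 2 and 11 counts and Igkv20 with 0 and 4.

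**Figure D3:**
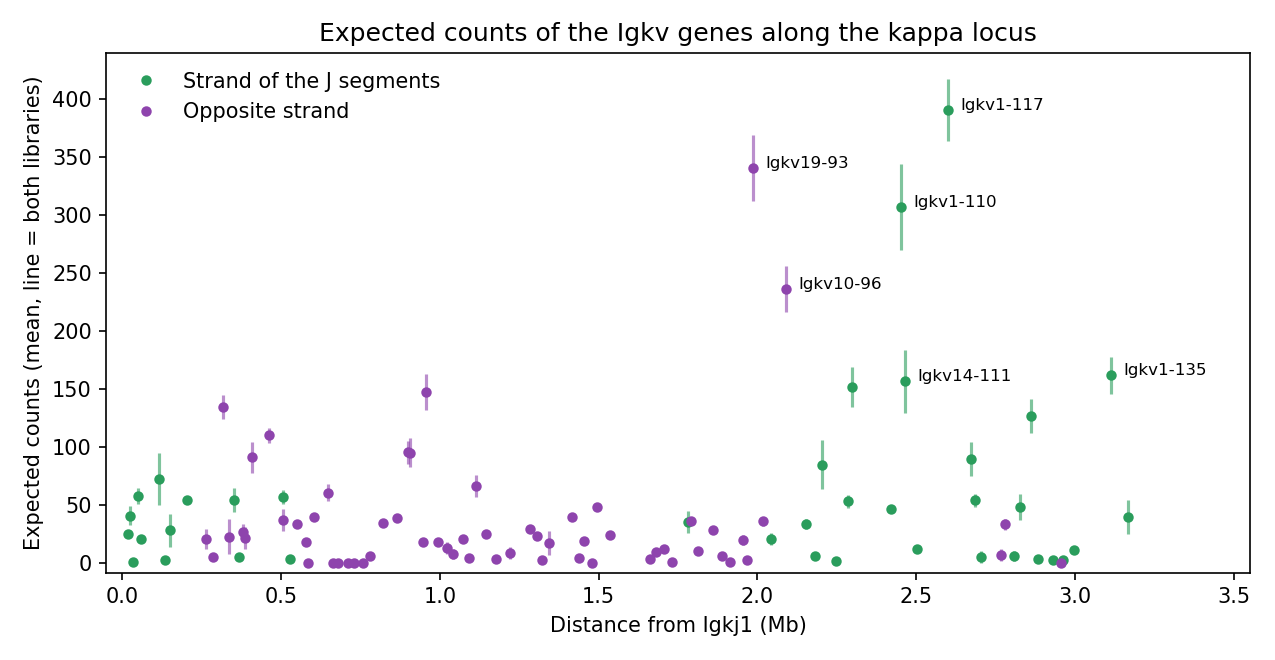
Expected counts of the 100 Igkv genes (points, mean of both libraries; vertical lines join the values of both libraries) against distance from Igkj1 in Mb, by strand relative to the joining segments (green, same strand; purple, opposite strand). Igkv1-117 and Igkv1-110 lie over 2 Mb from Igkj1, and a run of genes at 0 lies within 1 Mb.

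Along the locus the Igkv genes lie from 18.7 kb (Igkv3-1) to 3167 kb (Igkv2-137) from Igkj1. The 29 genes over 2 Mb away held 47.4% ± 0.14 of the Igkv counts, the 31 genes at 1 to 2 Mb 19.3% ± 0.46, and the 40 genes within 1 Mb 33.3% ± 0.60 (SD, n = 2). Of the 15 leading genes, 8 lay over 2 Mb away, 1 at 1 to 2 Mb and 6 within 1 Mb. The 62 genes on the strand opposite to the joining segments held 49.5% (exact 95% interval 48.0% to 50.9%) of the Igkv counts in replicate 1 and 49.3% (47.9% to 50.8%) in replicate 2. The 38 genes on the same strand held the rest, with a median of 40.9 and 35 counts per gene against 19.5 and 19.2 on the opposite strand. Position and strand cannot be told apart over much of the locus, since 30 of the 31 genes at 1 to 2 Mb and 5 of the 29 over 2 Mb lie on the opposite strand. All 7 Igkv genes at 0 in both libraries lie on the opposite strand, and 6 of them within 1 Mb. In order from the joining segments the first 5 are Igkv6-29, Igkv7-33, Igkv8-34, Igkv1-35 and Igkv18-36. A count of 0 allows up to 0.132 CPM (counts scaled to library size) in replicate 1 and 0.140 in replicate 2, which is 3 counts per library and covers counting error only. That limit holds for the gene table alone, since the alignment-free table gave Igkv6-29 a count of 0 and 4.08 and Igkv18-36 a count of 0 and 6. Igkv4-71, chosen after its values were seen, had 9.14 and 0 there. In addition, 56.0% of the windows of Igkv6-29 occur in another gene, chiefly Igkv6-20.

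Among the lambda variable genes, Iglv3 (chr16:19241207-19241690, minus strand) had 340 and 364 counts, Iglv1 (chr16:19085017-19085500, minus strand) 265 and 330, and Iglv2 (chr16:19260401-19260859, minus strand) 92 and 61. Iglv3 took 48.5% ± 0.40 of the lambda variable counts and shares no 50-base window with another gene, and in the alignment-free table its share was 62.1%. Iglv1 took 38.0% (34.4% to 41.7%) and 43.7% (40.1% to 47.3%), and Iglv2 took 13.2% (10.8% to 15.9%) and 8.08% (6.24% to 10.3%), so the Iglv2 intervals did not overlap between the libraries. Of their windows, 22.2% of those of Iglv1 and 21.1% of those of Iglv2 occur in another gene, chiefly in each other.

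Joining genes are too short for the gene table, so their values come only from the deposited alignment-free transcript table. There the effective lengths of their transcripts run from 7.3 to 9.6 bases. There Igkj5 had 259 and 283 estimated counts and Igkj2 248 and 254, Igkj4 115 and 180, Igkj1 91 and 30, and Igkj3 87 and 67. As shares of the Igkj counts, Igkj5 took 33.6% ± 1.69 and Igkj2 31.1% ± 0.14, and Igkj3 was lower at 9.55% ± 1.87. Igkj1 took 11.4% (exact 95% interval 9.26% to 13.8%) in replicate 1 and 3.69% (2.50% to 5.22%) in replicate 2, and Igkj4 took 14.4% (12.0% to 17.0%) and 22.1% (19.3% to 25.1%). For both segments the intervals lie apart between the libraries, Igkj1 being lower and Igkj4 higher in replicate 2. For Igkj2 and Igkj5 every count sat on a variant annotated as processed transcript, of 43 and 42 bases, that contains the whole joining segment printed above followed by the bases gtaa, and the joining-gene variants were at 0. The effective length of the counted variant was 9.61 and 8.32 bases for Igkj2, and 9.31 and 8.27 for Igkj5. For Igkj1, Igkj3 and Igkj4 it was 8.06 and 8.02, and the shares are not scaled by length. Among the lambda segments, Iglj3p had 175 and 104 estimated counts, Iglj3 16 and 25, and Iglj1 9 and 11. Iglj2 and Iglj4 were listed at 0, and the whole Iglj2 sequence lies within the 606-base Iglc2 transcript, so reads from it could have been given to that transcript. The kappa share of joining-gene counts was 80.0% and 85.3% with Iglj3p, whose printed sequence is unlike the other lambda segments, and 97.0% and 95.8% without it. Every Igkj gene lies in the annotated span of the noncoding RNA Gm30211 on the same strand. Iglj1, Iglj3 and Iglj3p lie in the span of the antisense RNA 2010309G21Rik. Whether reads from these RNAs entered the joining-gene counts was not tested.

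**Figure D4:**
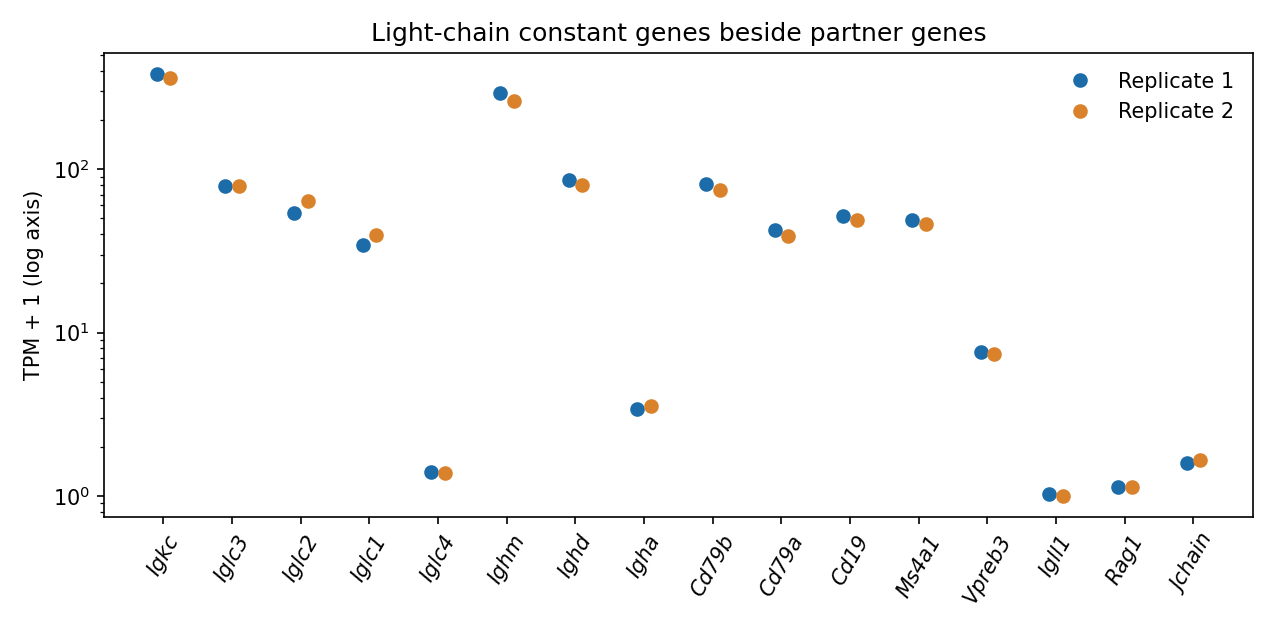
TPM plus 1 (log axis) of the light-chain constant genes beside other genes, as points for replicate 1 (blue) and replicate 2 (orange). The others are heavy-chain constant genes, receptor signal chains, B-cell markers, Vpreb3, the surrogate light-chain gene Igll1, Rag1 and Jchain. Igkc is highest, Ighm next, and Igll1 is near a TPM of 0.

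Beside the light chains, the heavy-chain constant genes summed to a TPM of 378 and 343, against 545 and 543 for the light-chain constant genes, a ratio of 1.51 ± 0.10 (SD, n = 2). The ratio of Igkc TPM to Ighm TPM, the gene for the IgM heavy chain, was 1.31 and 1.39, or 0.43 ± 0.056 on the log2 scale. Of the 8 heavy-chain constant genes, Ighm, Ighd and Igha reached a TPM of 1 in both libraries, Igha at 2.48 ± 0.13, and Ighe was listed at 0 in both. The receptor signal chains Cd79a and Cd79b, which carry the signal of the B-cell receptor, had TPMs of 39.6 ± 2.54 and 77.1 ± 4.96. Of the surrogate light chain, which stands in for a light chain in precursor B cells, Igll1 was at a TPM of 0.02 and 0. Vpreb1 and Vpreb2 were at 0, and Vpreb3, on the same gene list, was at 6.57 and 6.44. Rag1 and Rag2, the recombinase subunits, had TPMs of 0.135 ± 0.0071 and 0.0050 ± 0.0071, and Dntt, which adds bases at junctions, 0.055 ± 0.049. Of the 9 recombination genes, 5 reached a TPM of 1 in both libraries. These were the DNA repair genes Prkdc, Dclre1c, Xrcc4, Xrcc5 and Xrcc6, and Lig4 was at 0.29 and 0.12. Of 8 plasma cell genes, 4 reached a TPM of 1 in both libraries, with Xbp1 at 15.2 ± 0.34, Mzb1 at 6.23 ± 0.58, Irf4 at 5.42 ± 0.12 and Slamf7 at 2.40 ± 0.13, while Jchain, which links secreted IgM and IgA units, was at 0.625 ± 0.064, the surface marker Sdc1 at 0.73 ± 0.21, Prdm1 at 0.15 in both and Tnfrsf17 at 0 and 0.12.

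**Figure D5:**
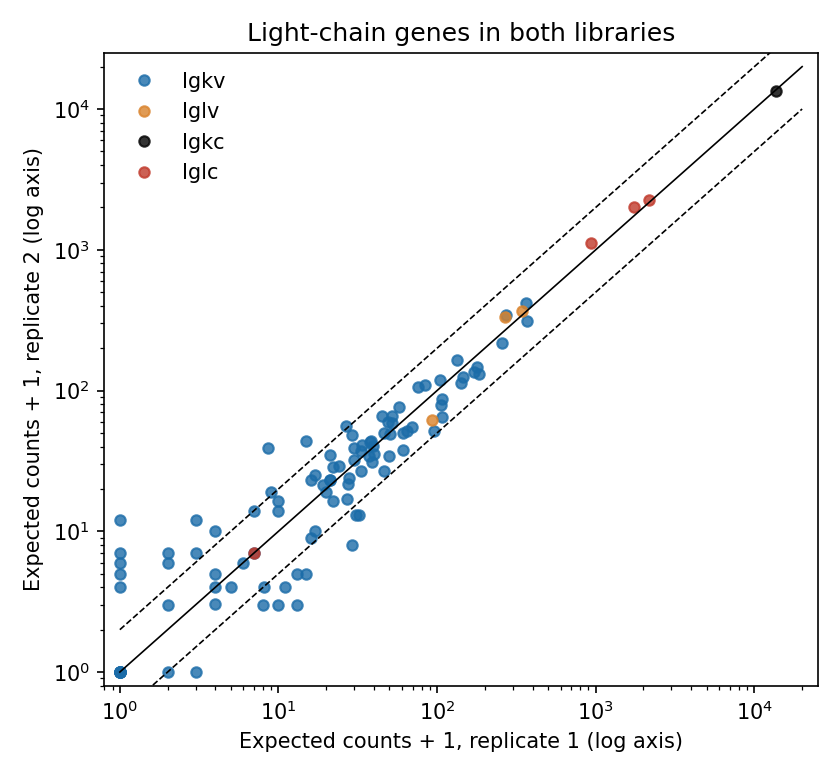
Expected counts plus 1 in replicate 1 (x, log axis) against replicate 2 (y, log axis) for each variable and constant light-chain gene, coloured by class, with the line of equality solid and 2-fold lines dashed. Igkc and the abundant Iglc and Iglv genes lie near the line of equality.

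Summed light-chain counts per library total were 1.06 times as high in replicate 2 as in replicate 1 (exact 95% interval 1.04 to 1.08, counting error only), a log2 ratio of 0.09. By class the ratio was 1.03 for Igkc (1.00 to 1.05), 1.03 for Igkv (0.991 to 1.08), 1.17 for Iglc (1.13 to 1.22) and 1.14 for Iglv (1.03 to 1.27). The Iglc interval lies above that of Igkc. By TPM the direction of the sum was reversed, with 808 in replicate 1 and 790 in replicate 2. The TPM was also lower in replicate 2 for Igkc (381 and 363) and Igkv (230 and 213). It was higher in replicate 2 for Iglc (164 and 180) and Iglv (32.8 and 34.1). The direction for all light-chain genes thus depended on the unit. Of 34 light-chain genes with at least 50 counts in the higher library, 0 passed 2-fold on the TPM plus 1 scale, against 0.701% of 11981 genes that met the same count limit. Their median fold was 0.98 (17 higher and 17 lower in replicate 2), beside 0.953 over all 11981 genes. The member furthest from equality was Igkv3-7, 1.92-fold lower in replicate 2 with 95.1 and 50.3 counts, followed by Igkv14-100 with 106 and 64, Igkv14-126 with 60 and 37, Iglv2 and Igkv14-111. In the other direction Igkv2-137 had 25.6 and 54.8 counts, a TPM plus 1 fold of 1.48, ahead of Igkv6-17 with 43.8 and 65.1, Igkv9-120, Igkv1-110 and Igkv4-55. Across the 100 Igkv genes, Pearson's r between the libraries was 0.90 on log2 counts plus 1. That value is across genes that share libraries and is given as a description.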

How the data were processed

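Total RNA of 2 neutrophil libraries, 1 group, was analysed. The authors deposited gene tables with an expected count, a posterior mean count and TPM per gene on GENCODE M21 and M4 (mm10), and an alignment-free transcript table with estimated counts and TPM on M21, per the file headers and the file lists deposited with the libraries. Effective lengths and TPM interval bounds are other deposited values. No label or header used here names the programs or versions behind the tables. The M21 expected counts were used as deposited, and M4 held 107 of the 118 genes.

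Shares were computed in each library with mean ± SD (n = 2) and exact Clopper-Pearson 95% intervals on rounded counts, and ratios between libraries with an exact conditional binomial interval. No test between conditions was possible with 1 group. Scaling alternatives came from edgeR 4.0.16 (TMM) and DESeq2 1.42.0 in R 4.3.3, with Python 3.11.15, numpy 2.4.6, pandas 2.3.3, scipy 1.17.1, Biopython 1.88 and matplotlib 3.10.9. The share, interval and fold steps were tested on simulated counts with counting error only, the fold on CPM plus 1. That check did not cover TPM or reads shared between similar genes. Sequence sharing means a 50-base window found in a transcript of another gene. Named are all constant, joining and Iglv genes, the 15 highest Igkv genes, the highest gene of each Igkv family with 10 counts in both libraries, the first 5 Igkv genes at 0 and up to 5 genes each way between libraries. The members and lists were chosen with earlier results of these data known.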

Additional observations from a re-analysis of the deposited data

Results flagged for a closer look

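Of the 60 Igk and Igl variable pseudogenes, which no comparison above uses, 3 in replicate 1 and 4 in replicate 2 exceeded the 3 counts that a count of 0 allows for a gene. Igkv4-73 had 13 and 4 counts and Igkv1-108 had 8 and 6, so their order differed between the libraries. Igkv12-40 had 5 and 2 counts, Igkv11-106 had 0 and 5, and Igkv4-77 had 0 and 4. Only Igkv4-73 and Igkv1-108 exceeded the limit in both libraries.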

How the results depend on the processing

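The kappa share of constant-gene counts was 78.1% in the M4 table, which holds Iglc2 as its only lambda constant gene and gives Igkc 6709 and 6516 counts, against 13672 and 13318 in M21. It was 87.8% in M21 with Iglc2 alone and 68.4% by TPM, and the kappa share of all light-chain counts was 80.4% in M4. The Igkv1 family held 18.4% in M4 and 17.9% by TPM, still the highest, and 2.65% among the 22 Igkv genes that share no 50-base window, where Igkv19 led with 31.2% and Igkv14 followed with 26.6%. Igkv1-117 held 6.67% in M4 and 7.47% by TPM, where Igkv19-93 led with 7.79%. The same 10 genes held 46.6% in M4, 44.1% in the alignment-free table and 46.1% by TPM. Among genes with at least 10 counts in both libraries they held 50.2%. Of these 10, only Igkv19-93, Igkv14-111 and Igkv16-104 share no 50-base window with another gene. Those genes held 59.4% of the counts of the 22 genes without shared windows. The opposite-strand share was 50.3% in the alignment-free table, 51.0% by TPM and 48.4% among genes with at least 10 counts. The log2 ratio of Igkc to Ighm was 0.59 in M4 and 0.51 in the alignment-free table. Past 2-fold between the libraries was 1 gene at 20 counts (Igkv8-16), 1 with a pseudocount of 0.1 and 1 in M4 (Igkv3-7 in both), and 2 in the alignment-free table (Igkj1 and Igkv6-20), with backgrounds of 0.855%, 2.38%, 0.654% and 1.53% of all genes. Unless stated, the cause was not tested. Of the shares of single genes under other tables, units and filters, 67 moved by less than 1 SD and 28 by more. The 67 include every setting with posterior mean counts, whose values nearly equal the main ones, and each SD rests on n = 2. The tally is therefore no measure of how stable these shares are. Moves over 1.5 times were those of Igkv8-21 in M4, Iglv2 (4.70% in M4 against 10.6%), Iglc4 (0.364% alignment-free and 0.234% by TPM against 0.117%) and Iglc2, which M4 gives no other lambda constant gene beside. Iglv1 held 30.0% of Iglv counts in the alignment-free table. The kappa share of joining-gene counts was 96.4% without Iglj3p. Without a replicate, the constant-gene share was 71.2% to 73.8%, that of all light-chain counts 74.3% to 76.7%, and the variable-gene share 85.5% to 86.7%. The settings without shared windows, with Iglc2 alone and without Iglj3p, and all settings for the variable-gene, joining-gene and single-gene shares, were added after seeing the data. No paired analysis was possible because the series has 1 group.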
